A study of Mus musculus with 5 samples.

Results

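The transcripts described here are those of p53 target genes in the forelimb bud of the mouse embryo. The set is Trp53 and 9 genes known as its targets in growth arrest, cell death and stress responses. It was chosen with earlier results of these data known. Every probe set carrying 1 of these 10 gene symbols in the platform annotation was taken, which gave 17 probe sets for 8 genes out of 45037 probe sets and 18193 named genes. The annotation table used here lists no probe set for Trp53 or Bax, and these genes are not analysed here. The 8 measured genes are Cdkn1a, Mdm2, Ccng1, Bbc3, Trp53inp1, Phlda3, Sesn2 and Rps27l.

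Forelimb RNA was taken at E11.5 from embryos of the C57Bl/6 background and hybridised to 5 single-channel Affymetrix arrays. The double mutant group (Sost-/-; Sostdc1-/-) held 2 arrays and the wild-type group held 3. Sost and Sostdc1 encode secreted antagonists of Wnt signalling that the double mutants lack, and per the series design each RNA sample came from unpooled embryos. The single comparison of the design asked how the limb transcriptome differs without both antagonists.

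The transcription factor p53 is held at a low level by the ubiquitin ligase Mdm2, and DNA damage or ribosomal stress releases it. It then switches on genes that stop the cell cycle, such as Cdkn1a, genes that trigger mitochondrial cell death, such as Bbc3 and Bax, and genes that close the loop, such as Mdm2 and Ccng1. In the limb bud, scheduled cell death shapes the margins and the spaces between digits, and in mouse embryos excess p53 activity is known to cause defects of growth and form.

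The p53 protein binds DNA as a tetramer, and each full site is made of a pair of 10-base elements. A search for the consensus of such an element was made in windows running from 250 bases before to 50 bases after each annotated start in RefSeq sequence of GRCm38.p6. The consensus reads the same on both strands. It occurred in 8.36% of 32851 windows of 300 bases and in at least 1 window of 9.55% of 27025 genes. Of the 10 genes named above 9 had a window, and 6 of these held the element, namely Trp53, Bax, Cdkn1a, Mdm2, Ccng1 and Rps27l. The stretches of 250 bases before the start are given for 3 genes whose probe sets are central below, with each element in capitals. The Cdkn1a stretch is chr17:29090729-29090978 on the plus strand, that of Mdm2 chr10:117710759-117711008 on the minus strand and that of Ccng1 chr11:40755287-40755536 on the minus strand. All are written 5′ to 3′ along the gene.
Cdkn1a: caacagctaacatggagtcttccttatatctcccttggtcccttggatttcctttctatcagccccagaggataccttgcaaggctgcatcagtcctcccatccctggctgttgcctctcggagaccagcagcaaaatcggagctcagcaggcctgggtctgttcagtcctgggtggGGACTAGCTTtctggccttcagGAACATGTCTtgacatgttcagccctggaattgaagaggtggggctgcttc
Mdm2: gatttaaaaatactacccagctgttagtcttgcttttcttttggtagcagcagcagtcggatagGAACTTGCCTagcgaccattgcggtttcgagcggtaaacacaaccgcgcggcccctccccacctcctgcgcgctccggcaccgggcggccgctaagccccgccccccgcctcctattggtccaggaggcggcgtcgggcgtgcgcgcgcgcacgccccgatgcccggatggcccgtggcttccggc
Ccng1: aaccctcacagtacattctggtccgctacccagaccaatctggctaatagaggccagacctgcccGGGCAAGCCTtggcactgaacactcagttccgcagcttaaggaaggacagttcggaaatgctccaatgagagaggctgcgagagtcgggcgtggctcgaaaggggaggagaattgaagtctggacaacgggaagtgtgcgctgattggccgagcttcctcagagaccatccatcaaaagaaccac

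The elements of Cdkn1a began 73 and 51 bases before the upstream of its annotated starts, that of Mdm2 began 186 bases before the start and that of Ccng1 began 185 bases before it. In Rps27l separate elements, not joined as a full site, began 210 and 107 bases before the downstream of its annotated starts. They lie at chr9:66946203-66946212 and chr9:66946306-66946315 on the plus strand. They are printed with 10 bases on either side, because Rps27l was the gene whose probe sets all rose. A link between these elements and that rise was not tested.
Rps27l upstream element: ctttgggctcGGGCTTGCTTtccttcaggc
Rps27l downstream element: gggcttgttgAGACTTGTCCgggcgacacg
A match is a description of these letters and not a measured binding site.

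Several facts about the arrays bear on all values below. Sost on 1450179_at and Sostdc1 on 1460250_at were lower in double mutants, by 2.17 and 2.35 on the log2 scale as sizes of the difference, while the other probe set of each gene did not pass the test. For Sostdc1 that is its brightest probe set, 1449340_at, with mean log2 levels of 8.93 (double mutant) and 8.89 (wild type). Which part of each gene was deleted is not given in the sources used here, and a probe set outside it checks nothing. Poly-A control transcripts, added to RNA before labelling, stood 1.55 to 3.79 higher in double mutants (log2). The 3′ minus 5′ difference of the Gapdh control probe sets averaged 0.21 ± 0.08 (SD) over the 2 double mutant arrays. Over the 3 wild-type arrays it averaged -0.10 ± 0.04 (SD). The exact permutation test gave a two-sided p = 0.1, the smallest that 10 splits allow. The same difference for the Actb control probe sets read 0.65 and 0.56 in double mutants and 0.20, 0.24 and 0.68 in wild type. Its values overlapped (exact permutation test, two-sided p = 0.4), so the separation seen with Gapdh was not shared by Actb. Because the poly-A and Gapdh controls split by genotype, an effect of sample handling could not be separated from one of the mutations. Xist and the Y-linked Eif2s3y were both high in each double mutant array, at 11.75 to 12.37 for Xist on 1436936_s_at and 8.36 for Eif2s3y on 1417210_at, whereas each wild-type array was high for only 1 of them; whether a double mutant array held RNA of a single embryo is therefore uncertain. Taking for every gene its brightest probe set, 3 of 9 surface ectoderm markers (Epcam, Esrp1 and Cdh1) were called higher and 0 lower, where 6.56% of all named genes were called higher and 8.14% lower. Among the 6 not called, Krt5 had a difference of -0.38. Summed linear intensities of these markers were 5698 to 5985 in double mutants against 3947 to 4465 in wild type. On the same basis 4 of 8 endothelial, 3 of 7 erythroid and 1 of 10 macrophage markers were called lower and 0 higher, the last share being close to that of all genes. Over all 12 endothelial probe sets, 3 were called higher and 4 lower, where 8.7% of all probe sets were called higher and 9.52% lower. The summed intensities of the endothelial, erythroid and macrophage markers, in that order, were 1675 to 1762 against 2193 to 2308, 44868 to 50200 against 51286 to 54982, and 867 to 1123 against 1249 to 1385. Of 10 limb mesenchyme markers, which define the tissue, Hoxa11 was called lower (-0.62) and 0 higher. Over their 23 probe sets 7 were called lower, a share above the 9.52% of all probe sets, and 0 higher. Their summed intensities were 21116 to 21217 against 19962 to 21586. The part of these shifts in the results below was not tested. Fewer cells of a type and less RNA per cell cannot be told apart in such bulk samples.

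Across the 17 probe sets of p53 targets, limma called 3 higher and 3 lower in double mutants at a Benjamini-Hochberg adjusted p under 0.05, and 11 were not called. That is 35.3% of these probe sets, against 18.2% of all 45037, of which 8.7% were called higher and 9.52% lower. The 3 higher ones were all of Rps27l, and the 3 lower ones belonged to Mdm2, Trp53inp1 and Bbc3. The arrays of the genotypes did not overlap on 12 of the 17, 6 in each direction, against 45.2% of all probe sets (22.1% upward and 23% downward). The probe set of highest average level over the arrays of both genotypes is called the brightest of its gene here. By it, 1 of 8 genes rose, 1 fell and 6 were not called, where 14.7% of all named genes were called. The median difference of the 8 genes was 0.04 (log2), and that of all named genes was -0.02. With array medians made equal, the median difference of all probe sets moved from -0.0098 to -0.10, so small differences have no settled direction.

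These calls changed with the arrays included. With double mutant replicate 1 or wild-type replicate 2 left out, limma called 0 of the 17 and 0 of all probe sets, although 7 and 8 of the 17 had an unadjusted p under 0.05. No probe set was called in each of the 5 fits that left out 1 array, while each of the 6 called differences kept its sign in all of them. Without wild-type replicate 3 the calls on Rps27l, Mdm2 and Trp53inp1 held and that on Bbc3 did not. With the Gapdh 3′ minus 5′ difference as a covariate 0 of 17 were called, and 1 had an unadjusted p under 0.05. That covariate was higher in both double mutant arrays than in every wild-type array, so the fit cannot separate it from genotype. Its estimates were imprecise: on 1416927_at of Trp53inp1 the SE was 1.36, against 0.46 without the covariate. The values given below for this covariate therefore do not show whether a difference depends on RNA quality.

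**Figure D1:**
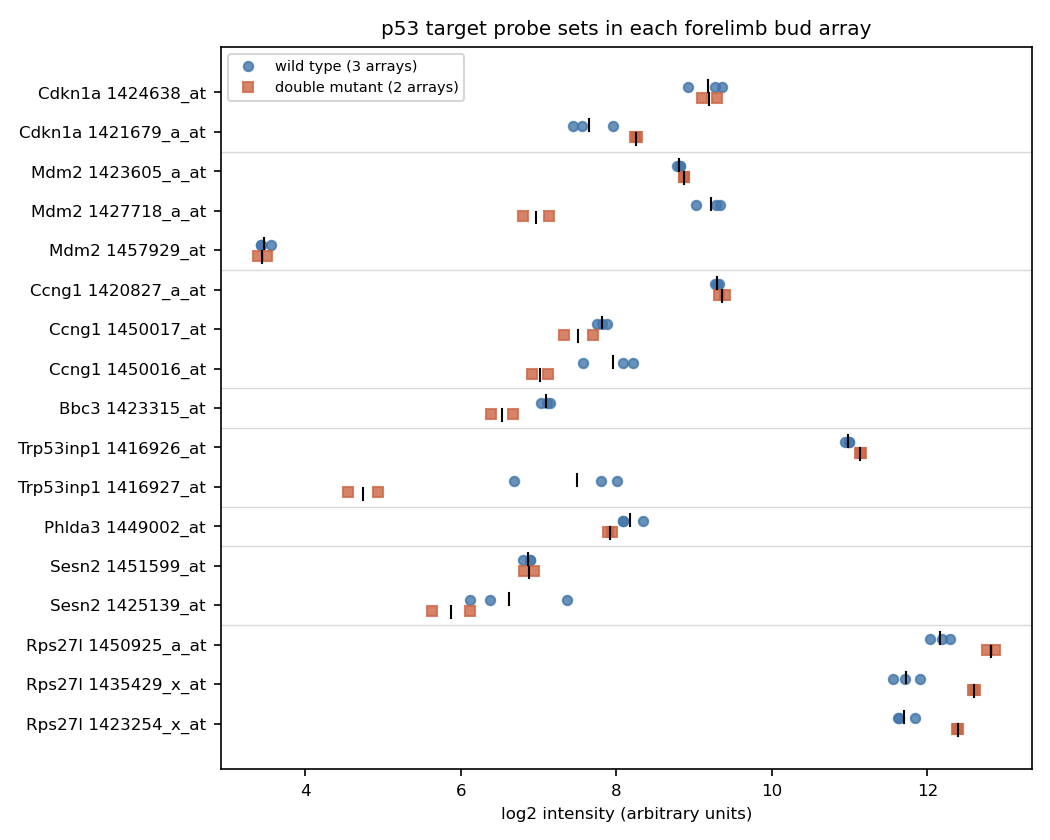
Log2 intensity (horizontal axis) of each of the 17 probe sets of 8 p53 target genes (vertical axis) in 3 wild-type arrays (circles) and 2 double mutant arrays (squares), with the group mean as a vertical stroke. The double mutant arrays lie right of all wild-type arrays on the 3 Rps27l probe sets and left of them on 1427718_a_at of Mdm2 and 1416927_at of Trp53inp1.

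Mdm2 encodes the ubiquitin ligase that marks p53 for destruction and is itself a p53 target. On its brightest probe set, 1423605_a_at, log2 intensity was 8.87 and 8.87 in the 2 double mutant arrays and 8.82, 8.78 and 8.82 in the 3 wild-type arrays. The difference was 0.06 ± 0.04 (SE, limma adjusted p = 0.417), with a 95% interval from -0.06 to 0.18. The level was thus nearly the same in all 5 arrays, although the genotypes did not overlap, and the interval holds no change beyond 0.18. Exactly the same value stood in 2 of the wild-type arrays, which can narrow this interval. With equal array medians the difference was -0.03 ± 0.09 (SE).

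A different Mdm2 probe set fell with the smallest p among the 17. On 1427718_a_at the double mutant arrays stood at 6.80 and 7.13 and the wild-type arrays at 9.34, 9.28 and 9.02 (log2). The wild-type mean was 4.75-fold that of double mutants, a log2 difference of -2.25 ± 0.15 (SE, limma adjusted p = 0.00687). All 3 wild-type arrays lay above both double mutant arrays. Only 0.937% of all probe sets had a lower difference. The difference was -2.42 to -2.08 with 1 array left out, missing the call without double mutant replicate 1 (adjusted p = 0.0513) or wild-type replicate 2 (adjusted p = 0.0597), and was -1.18 (adjusted p = 0.433) with the Gapdh covariate. The third Mdm2 probe set, 1457929_at, was near the level of Trpn, a control for an absent transcript (3.07 in wild type), with means of 3.45 ± 0.09 for double mutants and 3.47 ± 0.08 for wild type (SD, n = 2 and 3), so that little could be read from it.

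Ccng1 encodes cyclin G1, a p53 target that recruits a phosphatase to Mdm2 and so takes part in the feedback. Its brightest probe set, 1420827_a_at, read 9.32 and 9.40 in double mutants and 9.30, 9.27 and 9.32 in wild type, and the genotypes differed by 0.07 ± 0.05 (SE, limma adjusted p = 0.425). Its values overlapped between the genotypes and spanned a narrow range. On 1450016_at double mutants read 6.92 and 7.12 and wild type 8.09, 8.21 and 7.57, and the difference was -0.94 ± 0.22 (SE, limma adjusted p = 0.0591). The genotypes did not overlap there, yet the call was missed. It passed when dim probe sets were left out (adjusted p = 0.0326), after either other scaling between arrays (adjusted p = 0.0151 and 0.0488) or without wild-type replicate 3 (adjusted p = 0.0261), and the difference was 0.14 with the Gapdh covariate. The remaining probe set, 1450017_at, read 7.33 and 7.69 against 7.88, 7.81 and 7.75 and also missed the call (limma adjusted p = 0.203).

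Cdkn1a encodes p21, the inhibitor of cyclin-dependent kinases through which p53 stops the cell cycle in G1. On its brightest probe set, 1424638_at, log2 intensity was 9.29 and 9.10 in double mutants and 8.92, 9.36 and 9.28 in wild type. The difference was 0.02 ± 0.16 (SE, limma adjusted p = 0.965), with a 95% interval from -0.42 to 0.45. Both double mutant values lay inside the wild-type range. On 1421679_a_at double mutants read 8.27 and 8.24 and wild type 7.95, 7.44 and 7.56, a 1.52-fold higher mean in double mutants (log2 difference 0.60 ± 0.17, SE, limma adjusted p = 0.0894). The genotypes did not overlap on this probe set, and the closest wild-type array, replicate 1, was the one without Y-linked signal. Without that array the difference was 0.75 and passed (adjusted p = 0.0407), as it did with Eif2s3y as a covariate (adjusted p = 0.0380) and after quantile normalization (adjusted p = 0.0447). Because Eif2s3y was low in that array alone, the covariate fit nearly repeats leaving the array out and is not a separate check.

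Bbc3 encodes Puma, a BH3-only protein that is among the strongest triggers of p53-dependent apoptosis. It had a single probe set, 1423315_at, with 6.39 and 6.67 in double mutants and 7.04, 7.11 and 7.15 in wild type. The wild-type mean was 1.49-fold that of double mutants (log2 difference -0.57 ± 0.10, SE, limma adjusted p = 0.0332). Every wild-type array was higher than either double mutant array. After quantile normalization the difference was -0.52 and missed the call (adjusted p = 0.0796), and it was -0.18 (adjusted p = 0.914) with the Gapdh covariate. The call also needed every array but double mutant replicate 2 (adjusted p = 0.0695 to 0.140 without 1 of the others).

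Trp53inp1 encodes a stress-induced nuclear protein that promotes p53 phosphorylation and cell death. On its brightest probe set, 1416926_at, double mutants read 11.13 and 11.14 and wild type 10.99, 10.95 and 10.99, and the difference was 0.16 ± 0.04 (SE, limma adjusted p = 0.0859). The genotypes did not overlap, with a gap that was small but wide against the spread, and the call was reached with an offset of 16 before log2 (adjusted p = 0.0378) or a variance trend (adjusted p = 0.0497). Wild-type replicates 1 and 3 held exactly equal values, which can narrow that spread. With equal array medians the difference was 0.07 ± 0.09 (SE, limma adjusted p = 0.633). On 1416927_at double mutants read 4.55 and 4.93 and wild type 8.01, 7.81 and 6.68. The wild-type mean was 6.77-fold that of double mutants (log2 difference -2.76 ± 0.46, SE, limma adjusted p = 0.0273). The median probe set of the array had a level of 5.41, which both double mutant arrays fell short of and all 3 wild-type arrays exceeded. Wild-type replicate 3 was the lowest of its group, more than 1 log2 unit below the others, and without it the difference was -3.17. The call was lost without any other array (adjusted p = 0.0858 to 0.143) or with the Eif2s3y covariate (adjusted p = 0.0816), and with the Gapdh covariate the difference was -0.22 (adjusted p = 0.976).

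Phlda3 encodes a PH-domain protein that opposes Akt and so favours cell death after p53 activation. Its single probe set, 1449002_at, read 7.89 and 7.94 in double mutants and 8.08, 8.08 and 8.35 in wild type (difference -0.26 ± 0.10, SE, limma adjusted p = 0.188). The genotypes did not overlap, but the difference was within what 5 arrays leave uncertain, with a 95% interval from -0.54 to 0.03.

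Sesn2 encodes sestrin 2, which links p53 and other stress signals to inhibition of the growth kinase complex mTORC1. Its brightest probe set, 1451599_at, read 6.81 and 6.94 in double mutants and 6.80, 6.89 and 6.89 in wild type (difference 0.02 ± 0.07, SE, limma adjusted p = 0.883). On 1425139_at double mutants read 5.63 and 6.12 and wild type 7.37, 6.38 and 6.12 (difference -0.75 ± 0.44, SE, limma adjusted p = 0.326). Values overlapped on both probe sets, and wild-type replicate 1 alone stood clear of the other 4 arrays on 1425139_at.

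Rps27l encodes a ribosomal protein of the small subunit, a close relative of Rps27, and is a p53 target whose product binds Mdm2. Of the 6 genes with more than 1 probe set, it was the only one whose probe sets all passed the test. On 1450925_a_at double mutants read 12.77 and 12.87 and wild type 12.18, 12.03 and 12.29 (1.57-fold, log2 difference 0.65 ± 0.10, SE, limma adjusted p = 0.0214). On 1435429_x_at they read 12.59 and 12.61 against 11.72, 11.56 and 11.90 (1.83-fold, 0.87 ± 0.11, adjusted p = 0.0161). On 1423254_x_at they read 12.39 and 12.39 against 11.64, 11.62 and 11.85 (1.61-fold, 0.69 ± 0.09, adjusted p = 0.0158). Both double mutant arrays lay above all wild-type arrays on each of the 3. Probe sets with the suffix x hold probes that can also bind other sequences, and ribosomal protein genes have many near-identical copies, so these values are uncertain as a measure of Rps27l alone. The single probe set of Rps27 itself, 1460699_at, averaged 7.36 ± 0.04 for double mutants and 7.32 ± 0.05 for wild type (SD, n = 2 and 3) and was not called. That level was far below those of the Rps27l probe sets. Whether 1460699_at tracks Rps27 was not tested, so it cannot tell whether Rps27 changed or what the Rps27l probe sets bind. All 3 Rps27l calls were lost with any of 4 arrays left out (adjusted p = 0.0653 to 0.101) and held without wild-type replicate 3, and they were lost with Eif2s3y as a covariate (adjusted p = 0.0621 to 0.0770).

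**Figure D2:**
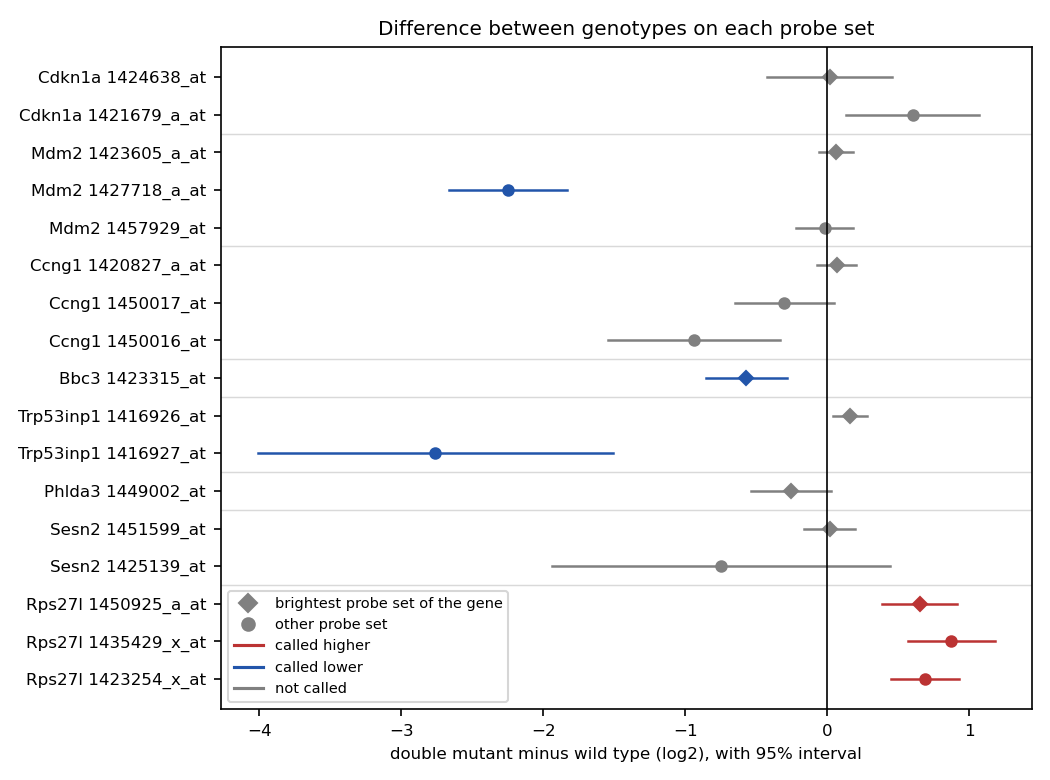
Difference between double mutant and wild type (log2, horizontal axis) with limma's 95% interval for each of the 17 probe sets, where diamonds mark the brightest probe set of a gene and circles the others. The brightest probe sets of 5 genes lie within 0.2 of 0, while dimmer probe sets of Mdm2 and Trp53inp1 reach -2.25 and -2.76.

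Probe sets of the same gene did not always give the same call. Of the 6 genes with more than 1 probe set, 5 had a brightest probe set within 0.2 of no difference, and Rps27l was the exception. Of the 9 dimmer probe sets of these 6 genes, 6 had a lower mean in double mutants. Double mutant values enter the ranking by average, so a fall in double mutants itself makes a probe set dimmer. In wild type alone, 1427718_a_at of Mdm2 (mean 9.21) exceeded the brightest, 1423605_a_at (8.81). The count of lower dimmer probe sets is therefore not independent of the ranking. To test the disagreement itself, the log2 ratio of each dimmer probe set to the brightest of its gene was compared between genotypes over all 16752 such pairs of the array, a comparison chosen after the values were seen. The ratio fell for 3 of the 9 pairs of p53 targets and rose for 0, against 18.6% of all pairs called lower and 12% called higher (30.6% in either direction). At 3 of 9, the share of changed pairs was close to that over the whole array.

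For Mdm2 the ratio of 1427718_a_at to 1423605_a_at averaged -1.90 ± 0.24 for double mutants and 0.40 ± 0.18 for wild type (log2, SD, n = 2 and 3). The change was -2.31 ± 0.17 (SE, limma adjusted p = 0.00207), and it was called in each fit with 1 array left out (adjusted p = 0.00127 to 0.0367). Among the results on p53 targets, the call on this Mdm2 ratio was the only one kept in every such fit. As 1423605_a_at was nearly level, the ratio largely restates the fall on 1427718_a_at, whose own call narrowly missed in some of these fits. The adjustment here ran over pairs, of which 30.6% were called, against 18.2% of probe sets. The calls on the ratio and on the probe set are therefore not on equal terms. For Trp53inp1 the ratio changed by -2.92 ± 0.43 (SE, limma adjusted p = 0.00678), a call that was lost without double mutant replicate 1 or 2 (adjusted p = 0.0756 and 0.0541). For Ccng1 the ratio of 1450016_at changed by -1.003 ± 0.23 (SE, limma adjusted p = 0.0257), a call lost without any array but wild-type replicate 3. With the Gapdh covariate the 3 changes were -1.23, -0.41 and -0.04 and limma called 0 of the 9 pairs and 0 of all pairs, 1339 of which had an unadjusted p under 0.05.

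The accession from which probe sets were designed was the same as that of the brightest in 5 of the 9 pairs, of Ccng1, Trp53inp1, Sesn2 and Rps27l, and different in the other pairs, of Cdkn1a, Mdm2 and Rps27l. Where the probes lie on each transcript was not known here, and distance from the poly-A tail matters in labelling that starts from it. Such disagreement was common on these arrays: of 11109 pairs whose brightest probe set differed by under 0.3 between genotypes, 10.5% had a dimmer probe set lower by at least 1 log2 unit and 5.62% had one higher by at least 1. Because double mutant values enter the ranking by average, these shares do not test a direction. Averaged over all probe sets of a gene, limma called 5 of the 8 genes, where it called 21.5% of all genes. By that average Cdkn1a (0.31 ± 0.06, SE) and Rps27l (0.74 ± 0.09) were higher and Mdm2 (-0.74 ± 0.06), Trp53inp1 (-1.30 ± 0.22) and Bbc3 were lower, so the Mdm2, Trp53inp1 and Cdkn1a calls depend on how probe sets are combined.

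**Figure D3:**
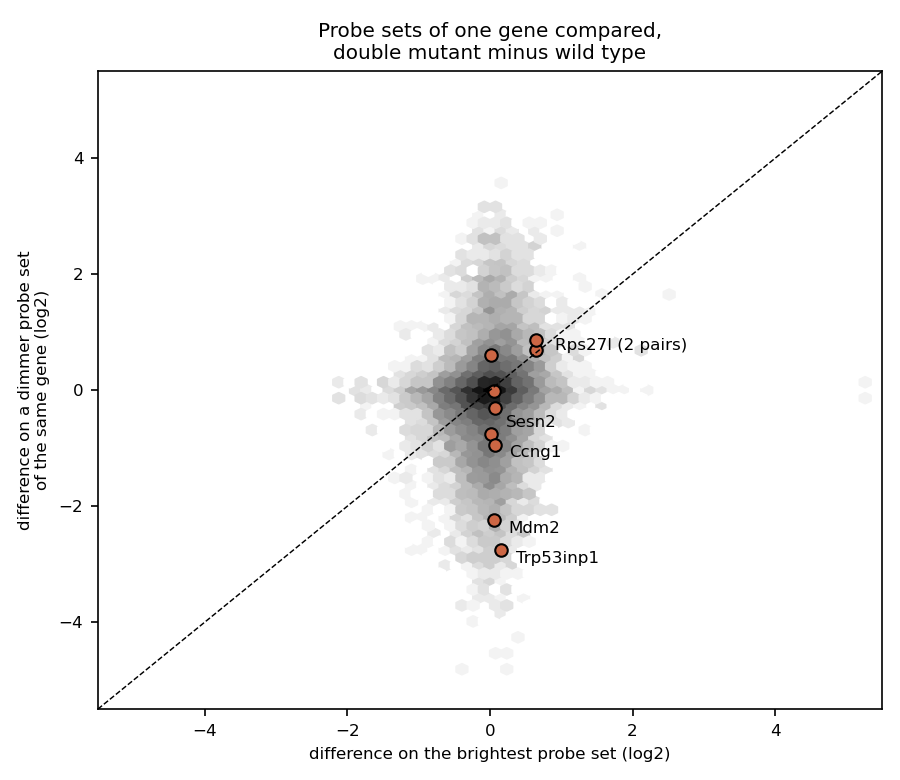
Difference between double mutant and wild type on a dimmer probe set (vertical axis, log2) against that on the brightest probe set of the same gene (horizontal axis, log2) for 16752 pairs, shaded darker where pairs are more numerous on a log scale, with the 9 pairs of p53 targets as filled circles and equality as a dashed line. The Rps27l pairs lie near the line, and the labelled Mdm2 pair (1427718_a_at) and the Trp53inp1 pair lie far below it, with differences of 0.06 and 0.16 on the brightest probe set.

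The genes whose values followed the brightest Cdkn1a probe set most closely were sought among 11529 named genes above the median level, by the root mean square distance of mean-centred log2 values over the 5 arrays. The closest were Kif3a (0.026), Ptprv (0.028) and Macroh2a3 (0.029), where the median gene lay at 0.21. Each was lowest in wild-type replicate 1 and differed by under 0.03 between genotypes, as did Cdkn1a.

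Genes around p53 were called in both directions. Among 21 measured regulators of p53, 2 rose, 2 fell and 17 were not called, with a median difference of 0.13, against the 6.56% and 8.14% of all named genes that rose and fell. Over all 62 probe sets of these regulators 7 were called higher and 9 lower, where the shares of all probe sets were 8.7% and 9.52%. In this and the following lists, differences are those of the brightest probe set unless another is named. Mdm4, the partner of Mdm2 that blocks p53 activity, rose by 0.90 ± 0.12 (SE, limma adjusted p = 0.0156) on 1460542_s_at, from 8.14 ± 0.07 (SD, n = 3) to 9.04 ± 0.22 (SD, n = 2), and its 3 other probe sets were not called. Trp63, the p53 relative of surface epithelium, rose by 0.52 ± 0.08, beside the 3 ectoderm markers called higher above, and its 3 other probe sets differed by -1.90 to 0.90. Kat5, an acetyltransferase acting on p53, differed by -0.89 ± 0.09 and Crebbp, a p53 coactivator, by -0.43 ± 0.09 (adjusted p = 0.00983 and 0.0466).

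Among 31 other p53 targets 6 rose, 3 fell and 22 were not called, with a median of 0.08. The share called was 29%, where it was 14.7% of all named genes. Over all 60 probe sets of these targets 7 were called higher and 10 lower, with a median of -0.07. Of all probe sets on the array, 8.7% were called higher and 9.52% lower. The lean upward thus holds for the brightest probe sets only. Ercc5, a nuclease of nucleotide excision repair, rose by 1.19 ± 0.13 (SE, limma adjusted p = 0.0120) and Ddb2, a damage sensor of the same route, by 0.90 ± 0.13 (adjusted p = 0.0206), the latter from 7.62 to 8.52. Polk, a polymerase that copies past lesions, rose by 0.97 ± 0.18 (adjusted p = 0.0326). A second Ddb2 probe set, 1425706_a_at, rose by 0.79, and a second Polk probe set, 1419501_at, had a difference of -0.49 and was not called. The other genes called higher were Sesn1, a relative of Sesn2 (0.47 ± 0.10), the autophagy gene Ei24 (0.35 ± 0.08) and the nuclease gene Aen (0.29 ± 0.05). Trp53i11 (-1.77 ± 0.22), Pidd1, which builds a caspase-activating complex (-0.47 ± 0.07), and the noncoding RNA gene Pvt1 (-0.37 ± 0.07) were lower. Perp, a p53 target that is also an adhesion gene of epithelia, stood at 9.65 ± 0.10 (SD, n = 2) and 9.25 ± 0.15 (SD, n = 3) and was not called.

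In the mitochondrial apoptosis machinery 1 of 22 genes rose, 2 fell and 19 were not called, with a median of 0.02. That is 13.6%, close to the 14.7% of all named genes. Over all 65 probe sets of these genes 5 were called higher and 9 lower, where the shares of all probe sets were 8.7% and 9.52%. Bcl2l2, a survival factor of the Bcl-2 family, rose by 1.06 ± 0.13 (SE, limma adjusted p = 0.0151), while Bid, a BH3-only trigger of cell death, fell from 7.76 ± 0.11 (SD, n = 3) to 7.16 ± 0.09 (SD, n = 2), a difference of -0.60 ± 0.09 (adjusted p = 0.0218). Casp8, which cleaves Bid, differed by -0.99 ± 0.06 (adjusted p = 0.00585). In the G1 arrest machinery 2 of 28 genes rose, 5 fell and 21 were not called (25% called), with a median of 0.03. Over all 62 probe sets of these genes 8 were called higher and 13 lower. Lower were Lin37 (-0.89 ± 0.06), E2f4 (-1.11 ± 0.12), the kinase genes Cdk2 (-0.39 ± 0.06) and Cdk4 (-0.31 ± 0.05), and the inhibitor gene Cdkn1c (-0.30 ± 0.05). Tfdp2 (0.52 ± 0.08) and Lin52 (0.94 ± 0.19) were higher. The largest difference of this list was that of Cdkn1b, another inhibitor gene. It was 1.28 ± 0.29 (SE) and narrowly missed the call (limma adjusted p = 0.0501). Lin37, E2f4 and Lin52 encode parts of the DREAM complex, through which p21 silences cell cycle genes. Lin9 (0.36), Lin54 (0.17), Rbl1 (0.09) and Rbl2 (-0.21), which also belong to it, were not called. Without double mutant replicate 1 or wild-type replicate 2, limma called 0 genes of each of these 4 lists.

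**Figure D4:**
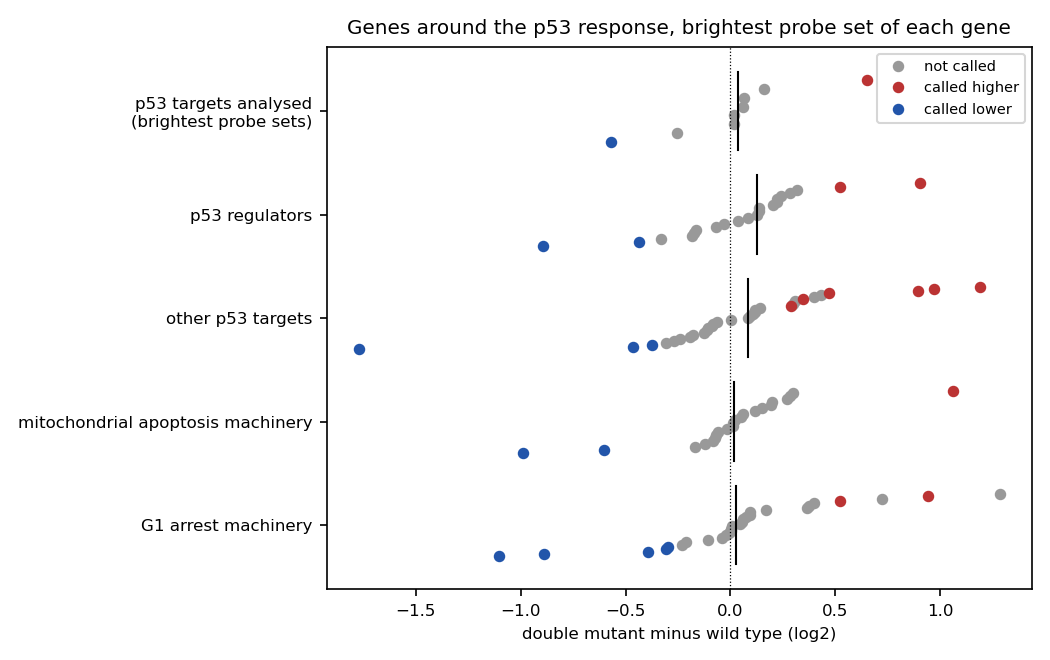
Difference between double mutant and wild type (log2, horizontal axis) on the brightest probe set of each gene, for the 8 p53 targets described above and 4 wider lists of genes (vertical axis), with calls in colour and the median of each list as a vertical stroke. List medians lie between 0.02 and 0.13, and each list holds calls on both sides of 0.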

How the data were processed

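The authors deposited 1 normalized intensity per probe set and array on a linear scale. RMA and limma were used, per the submitters' processing notes, which give no version, and further settings and the genome build are not given in the sources used here. Array medians ran from 39.4 to 44.4. Exactly repeated values in at least 2 arrays occurred in 48.5% of probe sets and in 7 of the 17 described, which can narrow their spread.

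From the deposited intensity log2 was taken, with no further normalization, and 64 control probe sets were left out. The test of genotype used limma 3.58.1 and R 4.3.3 (1 mean per genotype, no covariate, two-sided, empirical Bayes moderation). P-values were adjusted by the Benjamini-Hochberg method over 45037 probe sets, with no filter on level, and calls were made at an adjusted p under 0.05. The number of arrays limits the precision. Gene names came from the platform annotation, using probe sets with 1 symbol.

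The genes and lists were chosen with earlier results of these data known. All probe sets of the targets were named, from each list up to 6 genes by smallest p (Aen, Sesn1, Ei24 and Lin52 complete a count, and Perp was chosen after its values were seen), and for Cdkn1a the 3 most alike genes. The same search for Trp53 could not be made. Alternatives were an offset, a filter, 2 scalings, variance trend, robust moderation, array weights, a replicate block, 2 covariates, each array left out and, per gene, the mean of its probe sets.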

Additional observations from a re-analysis of the deposited data

Results flagged for a closer look

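Signal appeared in control probe sets that no comparison of genotypes used. The poly-A control transcripts, which come from no mouse gene, were higher in both double mutant arrays than in every wild-type array, with mean log2 differences of 3.79 for Dap, 1.73 for Thr, 1.81 for Phe and 1.55 for Lys. Their part in the differences of the p53 targets was not tested.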

How the results depend on the processing

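Over 254 combinations of a p53 target probe set and an alternative, 188 kept their direction and their side of the threshold, 38 lost a call, 10 gained one and 18 changed direction, all of the last on probe sets that were not called. With equal array medians the difference was -0.075 for Cdkn1a 1424638_at, -0.032 for Mdm2 1423605_a_at, -0.025 for Ccng1 1420827_a_at and -0.074 for Sesn2 1451599_at. Array weights gave -0.046 for Cdkn1a 1424638_at. The Gapdh covariate gave -0.85 for that probe set, 0.57 for Ccng1 1450017_at, 0.14 for Ccng1 1450016_at and 1.91 for Sesn2 1425139_at. The Eif2s3y covariate gave -0.11 for Cdkn1a 1424638_at, 0.022 for Mdm2 1457929_at and -0.0099 for Sesn2 1451599_at. With 1 array left out these 3 ranged from -0.12 to 0.11, from -0.083 to 0.044 and from -0.051 to 0.085. The cause of these changes was not tested.

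Of the 8206 probe sets called in all, the replicate block left 2351, the Eif2s3y covariate 3339 and the Gapdh covariate 0 (limma, 4259 at an unadjusted p under 0.05), and leaving out 1 array gave 0 to 5108. The 6 called p53 target probe sets became 3, 2 and 0 under these settings and 0 to 6 with 1 array left out. The 2 genes called by brightest probe set became 1 after quantile normalization, 0 with the block and both covariates, 5 by the mean of probe sets and 0 to 1 with 1 array left out. The block and the Gapdh covariate gave 0 called genes in each of the 4 wider lists. With the Eif2s3y covariate 1 regulator, 1 other target and 2 arrest genes were called. The mean of probe sets gave 6 apoptosis and 12 arrest genes. With 1 array left out the lists held 0 to 3 regulators, 0 to 6 other targets, 0 to 2 apoptosis genes and 0 to 3 arrest genes. Of 3 changed probe set ratios the Gapdh covariate left 0, and leaving out 1 array gave 1 to 3. The Gapdh 3′ minus 5′ difference of 0.31 lay between 0.26 and 0.37 with 1 array left out. Replicate numbers are shared by 2 pairs of arrays, whose deviations from group means correlated at 0.09 and 0.12, and nothing in the labels ties equal numbers to a shared litter or day, so the block is given here without a claim of pairing.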
